A study of Mus musculus with 28 samples.

Results

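The genes described here bear the names of the proteins of the cytosolic ribosome. They were taken by symbol: Rpl or Rps followed by a number and at most 1 of the letters a, x or l, or the symbols Rplp0, Rplp1, Rplp2 and Rpsa. A mean of at least 1 CPM (counts scaled to a common library size) over the 28 libraries was also required. The table held 20891 genes; 81 had such a symbol, and 78 of them reached the minimum, 32 of the small (40S) and 46 of the large (60S) subunit. The member just inside the minimum was Rps4l at 1.51 CPM, which the GRCm38 annotation types as a transcribed processed pseudogene, and the symbols just outside it were Rpl39l at 0.87, Rpl3l at 0.13 and Rpl10l at 0.00. Rpl39l and Rpl3l are paralogs best known from testis and striated muscle.

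Naive CD4 T cells from the spleen of C57BL/6 mice were cultured for 68 h on plates coated with antibodies to CD3 and CD28, each at 1 µg/ml. Th17n cultures, labelled non-pathogenic Th17, were given 25 ng/ml of IL-6 with 2 ng/ml of TGFb1, and iTreg cultures that dose of TGFb1 alone. DFMO cultures held 100 µM of the drug, an inhibitor of ornithine decarboxylase, the enzyme that makes putrescine, and ctrl cultures held none. WT cells came from 4 animals, and KO cells came from 3 animals with a floxed JMJD3 gene (Kdm6b, a histone H3 lysine demethylase) deleted by CD4cre, a driver active in T cells only from their development in the thymus. Each animal gave 1 library of each of the 4 cultures, and the replicate number below is the animal's. Thus the 8 groups (Th17n or iTreg, ctrl or DFMO, WT or KO) held 4 libraries for WT and 3 for KO. The labels do not say whether WT animals carried CD4cre or the floxed gene, and they give no age. Cells were sorted for live cells in bulk, so fewer cells of a type and less RNA per cell cannot be told apart.

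Ribosomal proteins are assembled with ribosomal RNA in the nucleolus and are needed in near-equal amounts, since each ribosome holds most of them once. Their mRNAs are abundant and long-lived, and most begin with a C followed by a run of pyrimidines, the 5′ terminal oligopyrimidine (TOP) motif. Through this motif the mTOR pathway and the RNA-binding protein LARP1 control their translation and stability, and in T cells their translation rises with activation. Polyamines bind RNA and ribosomes, and spermidine is the source of the hypusine residue of the translation factor eIF5A.

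The first bases of these mRNAs carry that motif, so the annotated starts of some members described below, and of Eif3f, are shown. Annotated starts of other members described below are left out. Those of Rpl24, Rpl10a, Rpl13a, Rpl37a, Rps25 and Rpl5 lack the motif at that base. So do those of Rpl10, Rpl11, Rpl22, Rpl31, Rpl39, Rplp0, Rps12, Rps19, Rps26, Rps4x and Rpsa. The start of Rpl28 and a start of Rps21, also left out, carry it. The lines are thus a selection. Sequences were from RefSeq on GRCm38.p6, in which 57 of the 78 members were matched with 68 starts. Each line gives 30 bases, 10 before the start and 20 from it, and capitals mark the unbroken pyrimidines counted from the start.
Rps2, chr17:24720053-24720082, plus strand: gtcgagatctCgcgcttcttggagcactat
Rpl12, chr2:32961702-32961731, plus strand: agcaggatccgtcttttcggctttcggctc
Rps27l, chr9:66946076-66946105, plus strand: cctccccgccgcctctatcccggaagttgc
Rps27, chr3:90213629-90213658, minus strand: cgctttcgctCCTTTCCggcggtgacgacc
Rps6, chr4:86857348-86857377, minus strand: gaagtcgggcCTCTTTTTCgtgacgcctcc
Rplp2, chr7:141447641-141447670, plus strand: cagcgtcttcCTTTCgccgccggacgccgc
Rpl38, chr11:114668570-114668599, plus strand: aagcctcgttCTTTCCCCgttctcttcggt
Rpl27a, chr7:109519185-109519214, plus strand: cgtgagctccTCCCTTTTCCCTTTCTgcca
Eif3f, chr7:108934405-108934434, plus strand: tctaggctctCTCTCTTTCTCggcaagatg

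A C followed by at least 4 pyrimidines stood exactly at the annotated start in 13 of 68 member starts (19.1%), against 2.51% of the 32851 starts in the table. Annotated starts can lie a few bases from the start in use, and in Rpl12 a pyrimidine run begins just after it, so a start without the run says only that these letters are not at that base. CCGGAAG, on either strand of the 300 bases around the start, was in 36.8% of member starts and in 8.86% of all. CACGTG was in 11.8% and 7.15%. These shares are descriptions of the annotation, and whether they relate to the expression values was not tested.

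Libraries held 2226914 to 4759290 estimated counts. The 7 T cell markers in the table of the 8 listed summed to 2801 to 4046 CPM in every library. Foxp3, which defines regulatory T cells, stood at 190 to 382 CPM in iTreg and 3.78 to 40.8 in Th17n libraries, and Il17f at 259 to 1332 in Th17n and at most 11.1 in iTreg. The summed list of 5 regulatory T cell genes did not follow the labels: it was at 1905 to 2414 CPM in Th17n ctrl WT and 1398 to 1758 in iTreg ctrl WT. The 6 Th17 genes summed to 812 to 1775 CPM in Th17n ctrl WT and 391 to 995 with DFMO. Myeloid markers (5 of 6 in the table, Lyz2 at 0 in 7 of the 8 groups) moved with DFMO, from 8.01 to 9.48 CPM down to 1.86 to 3.96 in WT Th17n and from 15.5 to 17.9 down to 1.89 to 4.73 in KO Th17n. In iTreg they were at 3.95 to 7.89 and 1.04 to 5.34 in WT and 3.29 to 9.70 and 2.77 to 4.06 in KO. B cell markers (6 of 6) went from 28.2 to 36.5 CPM to 16.7 to 19.4 with DFMO in KO Th17n, and lay between 6.31 and 23.7 in all other groups. CD8 T cell markers (2 of 2) were also lower with DFMO in Th17n cells, without overlap. They went from 14.06 to 20.99 CPM to 6.096 to 10.13 in WT and from 22.46 to 25.86 to 10.88 to 12.42 in KO. In iTreg the ranges overlapped, at 18.68 to 25.42 and 12.78 to 20.51 in WT. In KO iTreg they were at 18.51 to 24.26 and 18.05 to 24.58. The part of the myeloid, B cell and CD8 T cell markers in the results below was not tested. Neutrophil, erythroid, NK and fibroblast lists reached at most 3.67 CPM. Mitochondrially encoded genes took 0.569% to 1.70% of counts. The targeted gene Kdm6b was lower in KO than in WT in both DFMO cultures (log2 differences of -0.95 and -1.01, edgeR adjusted p = 0.0076 and 0.0025) and not called in the ctrl cultures (-0.44 and -0.48, adjusted p = 0.28 and 0.19). Gene-level values do not resolve the deleted exons, so they check the labels only in part. Odc1, the target of DFMO, rose under DFMO in WT and KO Th17n cells (0.65 and 0.41) and did not pass the test in iTreg cells (0.30 and 0.35).

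Ribosomal protein mRNAs were among the most abundant in these cells. On the TPM scale, which allows for length, the median member stood at 3193 TPM and the median tested gene at 12.5. Among the highest were Rpl41 at 11787 TPM, the stalk proteins Rplp1 at 9255 and Rplp0 at 7236, and Rps18 at 6662. The lowest were Rpl35 at 554, Rps12 at 453, Rpl12 at 329, Rpl5 at 60.2 and Rps4l at 1.96. Rpl5, a partner of 5S RNA that together with Rpl11 binds the p53 regulator MDM2, thus had far less assigned than its partners in the same particle, and how kallisto divided its reads was not tested.

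Copies can share these reads. Processed pseudogenes of ribosomal protein genes are numerous and near-identical to their parents, and reads from either can be assigned to the other or divided between them. One of the 78 counted here, Rps4l, is itself annotated as a pseudogene. Beyond it the table held 20 rows named as pseudogenes of 16 members. Of these, 10 had under 1 CPM, but 5 held over 10% of their parent's level: Rps12-ps3 (593%), Rpl10-ps3 (161%), Rpl27-ps3 (64.5%), Rps26-ps1 (37.0%) and Rpsa-ps10 (10.8%). Values of Rps12, Rpl10, Rpl27, Rps26 and Rpsa are therefore uncertain as levels. Adding the pseudogene rows to their parents was an alternative chosen after seeing the data. It ended 1 of the 46 calls of named members, the rise of Rps12 in KO iTreg cells described below. Of those 5 parents only Rps12 was among the 46 calls. The other calls among the 46 had little or nothing added and could hardly change, so they say little about shared reads. Rpl10, Rps26 and Rpsa, outside the 46, are described below in WT iTreg cells under DFMO. With the rows added they stood there at 0.46, 0.31 and 0.32 (log2, edgeR adjusted p = 0.00054, 0.0066 and 0.048).

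Members also varied little. The SD of log2 CPM over the 28 libraries had a median of 0.21 in members and 0.43 in all genes tested, and 75 members were below the latter. Members and genes were not matched for level, and the part of level in this difference was not tested. The steadiest were Rpl4, Rpl6, Rpl3, Rpl13 and Rpl23, with SDs of 0.12 to 0.15. The most variable of those with at least 10 CPM were Rps2 (0.82), Rps27l (0.47), Rpl31 (0.36) and Rpl12 (0.35).

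Together the 78 genes took 12.8% to 18.6% of a library's counts. The share was 14.5% ± 0.936 (SD, n = 4) in Th17n ctrl WT, 14.5% ± 1.18 with DFMO, and 14.1% ± 0.696 (n = 3) and 14.2% ± 1.15 in the same cultures of KO cells. In iTreg cells it was 15.7% ± 0.926 in ctrl WT and 17.6% ± 1.33 with DFMO, and 17.1% ± 1.02 in ctrl KO and 16.3% ± 1.18 with DFMO. Within animals, the share in WT iTreg cells rose with DFMO in 4 of 4 (by 2.64, 0.848, 2.34 and 1.89 percentage points), and in KO iTreg cells it was lower with DFMO in 3 of 3 (by -1.04, -0.899 and -0.612). In Th17n cells the changes had both signs, between -0.675 and 0.823 points. As a share of the deposited TPM of the listed genes, the rise in WT iTreg was 1.10 to 3.88 points and the change in KO iTreg -1.37 to -0.999. No test was made of these sums, and ctrl cultures of the genotypes differed by about as much as DFMO moved them.

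**Figure D1:**
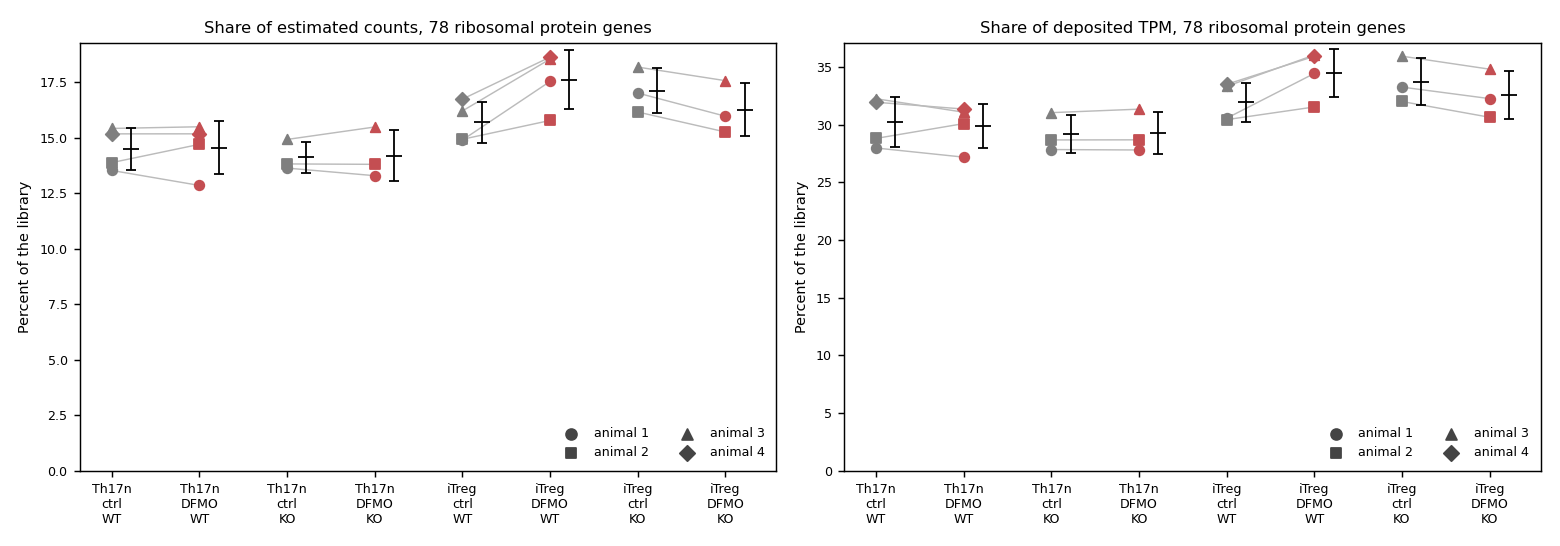
Share of each library's estimated counts (left) and deposited TPM (right) taken by the 78 ribosomal protein genes, in percent, for the 8 groups. Points are libraries, symbols the animal number within a genotype, grey lines join the ctrl and DFMO cultures of 1 animal, and bars give the mean and SD; in iTreg cells all 4 WT lines rise and all 3 KO lines fall.

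Animals differed in the whole set. Averaged over members, WT animals 3 and 4 and KO animal 3 lay above their group's mean log2 CPM in 4 of 4 cultures, by 0.070 to 0.166, while WT animal 1 and KO animal 2 lay below it in 4 of 4. WT animal 2 and KO animal 1 were above it in 1 of 4. What sets the animals apart was not tested.

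In WT Th17n cells 5 members rose under DFMO and 12 fell, and 61 did not pass the test. That is 21.8% called, against 51.8% of the 10985 genes tested (23.4% higher and 28.4% lower). The median member changed by -0.07 on the log2 scale, and so did the median gene. With DFMO 36 members were lower and 11 higher in all 4 animals. Such counts over animals, here and below, were made for members only, so no share of all genes stands beside them. In KO Th17n cells 3 rose and 8 fell, against a background of 45.6% called, 21.1% higher and 24.6% lower, the median member changed by -0.03, and 31 members were lower and 21 higher in all 3 animals. With the animal as a block 8 rose and 20 fell in WT (24.6% and 29.9% of genes) and 11 rose and 12 fell in KO (22.1% and 25.9%). The 3 members higher in KO (Rpl5 and Rps27l among them) were also called higher in WT, from other animals. So were the 8 lower (Rpl12, Rpl10a, Rpl13a, Rpl24, Rpl3, Rpl27a, Rpl4 and Rps6) called lower there. In WT they are 60.0% and 66.7% of the members' calls. The like overlap over all genes was not counted, so this does not set members apart. Of the 12 lower in WT 11 were 60S members, where 46 of all 78 members are 60S. Of the 5 higher 4 bear 40S names, the annotated pseudogene Rps4l among them.

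The counts in Th17n cells hung on single libraries and on scaling. In WT, 8 rose without Th17n DFMO WT replicate 1 and 3 without Th17n DFMO WT replicate 4 or Th17n ctrl WT replicate 2, and 7 or 5 fell without Th17n DFMO WT replicate 1 or 2. In KO, 9, 7 or 5 rose without Th17n DFMO KO replicate 1 or 2 or Th17n ctrl KO replicate 3, and 4, 5 or 5 fell without Th17n DFMO KO replicate 1 or 2 or Th17n ctrl KO replicate 2. TMM measures all libraries against 1 reference library, and the library next nearest to edgeR's criterion, tried after seeing the data, gave 6 higher and 8 lower in WT and 9 and 7 in KO.

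Rpl12, which sits at the base of the ribosomal stalk, fell under DFMO in all 4 comparisons, and it was the only member to do so. Its libraries in Th17n ctrl WT stood at 259, 322, 340 and 322 CPM and those with DFMO at 164, 196, 215 and 207. In KO Th17n they were at 243, 285 and 313 without and 147, 196 and 186 with DFMO. In iTreg cells they were at 281, 241, 325 and 311 against 220, 176, 248 and 254 in WT, and at 306, 259 and 320 against 173, 180 and 212 in KO. Rpl12 was lower with DFMO in every animal and culture, and the groups overlapped in WT iTreg only. The log2 change was -0.67 ± 0.12 (SE; adjusted p = 3.3e-05) in WT Th17n, -0.67 ± 0.14 (0.00026) in KO Th17n, -0.37 ± 0.12 (0.014) in WT iTreg and -0.65 ± 0.14 (0.00058) in KO iTreg. The WT iTreg call was lost without iTreg DFMO WT replicate 2 (-0.28, adjusted p = 0.058) or iTreg ctrl WT replicate 3 (-0.30, 0.059). None of the 4 interaction tests called Rpl12.

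Rps27l, a paralog of Rps27 known as a p53-responsive gene, was the only member higher in all 4. In Th17n WT it stood at 144, 118, 147 and 151 CPM in ctrl and 190, 259, 259 and 255 with DFMO. In Th17n KO it was at 105, 134 and 125 against 217, 198 and 248. In iTreg it was at 221, 207, 252 and 202 against 327, 300, 325 and 341 in WT, and at 224, 244 and 222 against 262, 285 and 314 in KO. In each of the 4 comparisons every DFMO library was above every ctrl library. The log2 rise was 0.78 ± 0.10 (adjusted p = 2.2e-07) in WT Th17n, 0.86 ± 0.12 (1.0e-06) in KO Th17n, 0.55 ± 0.10 (4.8e-05) in WT iTreg and 0.32 ± 0.12 (0.032) in KO iTreg. The last call was lost with total-count scaling (0.22, adjusted p = 0.11), on TPM with limma (0.26, 0.059) and without iTreg DFMO KO replicate 2 or 3 or iTreg ctrl KO replicate 1 or 3 (0.24 to 0.32, 0.067 to 0.16). Rps27 itself, the common paralog, rose in WT iTreg (0.39 ± 0.10, 0.0025) and stood at -0.16, -0.12 and 0.03, not called, in WT Th17n, KO Th17n and KO iTreg.

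**Figure D2:**
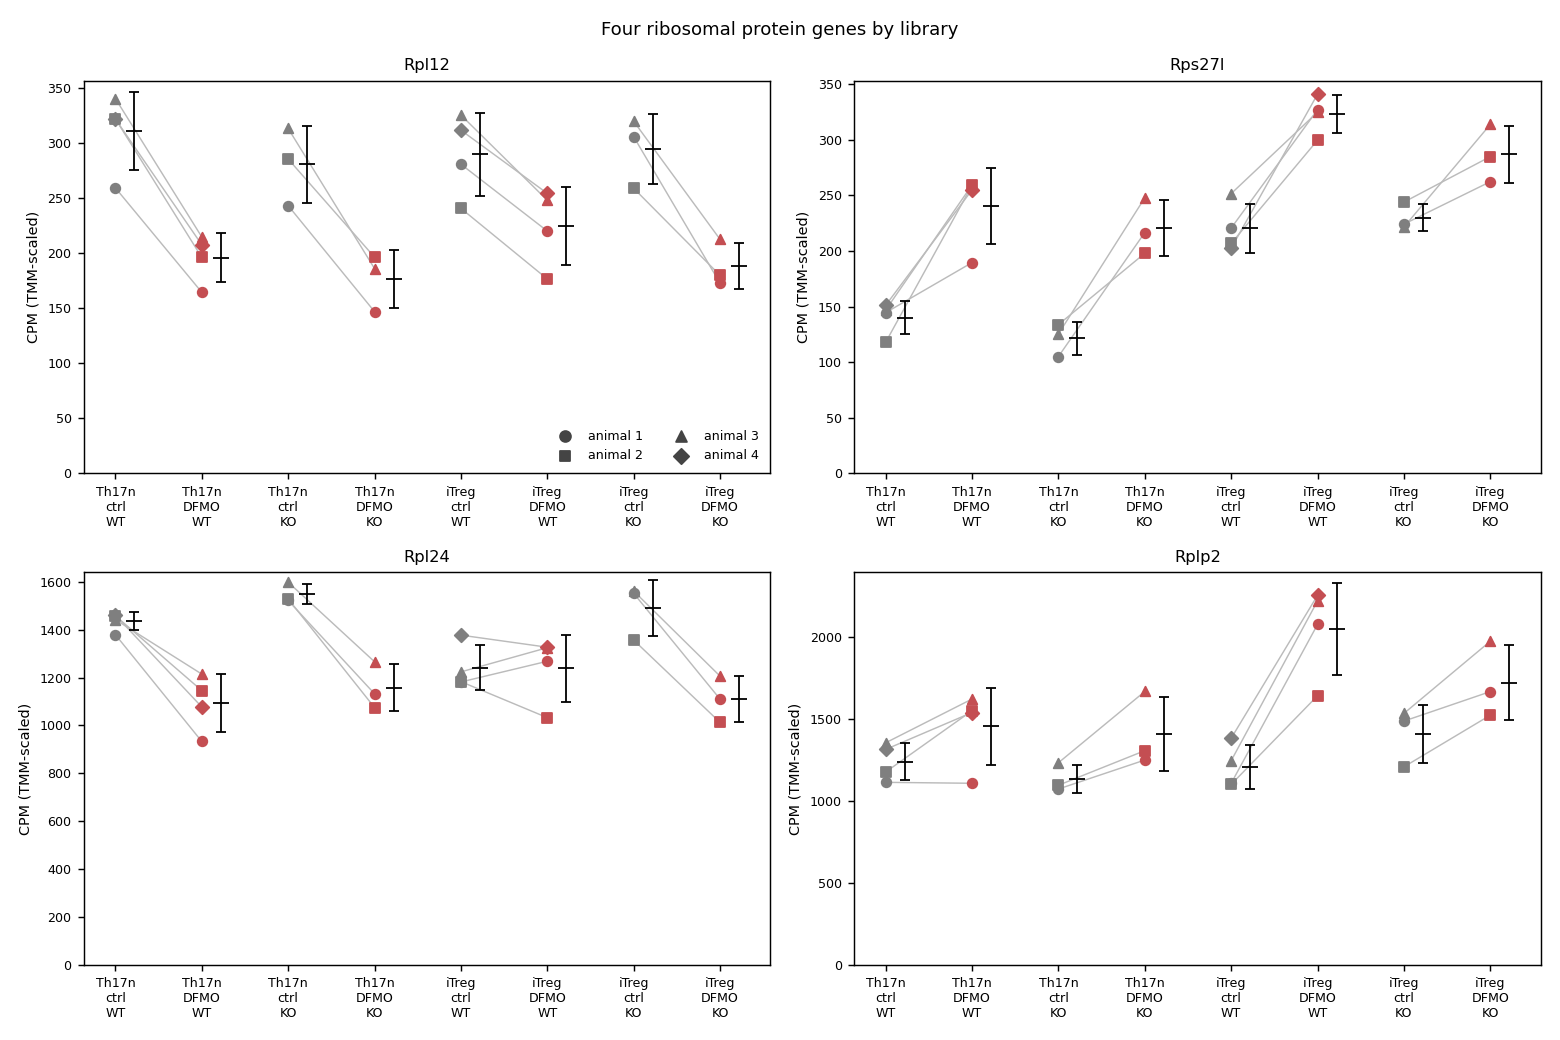
Rpl12, Rps27l, Rpl24 and Rplp2 in every library, in TMM-scaled CPM, for the 8 groups, with symbols, lines and bars as in the plot of shares. Rpl12 falls and Rps27l rises with DFMO in each animal, Rpl24 falls in all but WT iTreg cells, and in WT iTreg cells Rplp2 with DFMO (1642 to 2254 CPM) lies above ctrl (1100 to 1382 CPM). Rplp2 with DFMO also lies above ctrl in KO Th17n cells (1249 to 1668 against 1072 to 1232 CPM), where it was not called.

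Other large-subunit members fell in Th17n cells and did not pass the test in WT iTreg cells. Rpl24, which bridges the subunits, stood at 1380, 1459, 1443 and 1461 CPM in Th17n ctrl WT and at 933, 1146, 1215 and 1077 with DFMO, without overlap. It fell by 0.39 (adjusted p = 0.00044) in WT Th17n, 0.42 (0.0012) in KO Th17n and 0.43 (0.0015) in KO iTreg, with -0.00 ± 0.09 in WT iTreg. Rpl10a, which binds near the exit site of tRNA, fell by 0.34, 0.44 and 0.27 in the same comparisons (adjusted p = 0.00052, 0.00014 and 0.018) and stood at 0.06 in WT iTreg. Its KO iTreg call was lost without iTreg DFMO KO replicate 2 or iTreg ctrl KO replicate 1 or 3 (-0.25 to -0.23, 0.074 to 0.078) and with no filter (-0.24, 0.11). Rpl13a, released from the ribosome under interferon-gamma in myeloid cells, fell by 0.38 in WT and 0.44 in KO Th17n (0.0032 and 0.0036), the latter lost without Th17n DFMO KO replicate 1 or 2 (-0.30 and -0.33, 0.083 and 0.062).

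Rpl3, at the peptidyl transferase centre, fell by 0.21 and 0.32 in WT and KO Th17n (adjusted p = 0.012 and 0.0019), the latter lost with no filter (-0.23, 0.081). Rpl39, at the exit tunnel, fell in WT Th17n by 0.30 (0.014) and stood at -0.19 in KO. Rpl17, also at the tunnel, fell by 0.34 in WT Th17n (0.042), a call lost in 6 of the other settings (-0.33 to -0.28) and without Th17n DFMO WT replicate 1, 2 or 3 or Th17n ctrl WT replicate 3 or 4 (-0.35 to -0.21, 0.055 to 0.22). The test of the difference between the WT Th17n and WT iTreg responses gave -0.39 for Rpl24 (adjusted p = 0.048), -0.40 for Rpl10a (0.017), -0.45 for Rpl13a (0.051) and -0.36 for Rpl3 (0.018). The 3 calls among these were lost with total-count scaling (-0.19, -0.19 and -0.15), on TPM with limma (-0.11, -0.13 and -0.08), with the other TMM reference library (-0.31, -0.32 and -0.28), with no filter, in a fit of these 4 groups alone and without iTreg DFMO WT replicate 3 or 4, iTreg ctrl WT replicate 1 or 2, Th17n ctrl WT replicate 1 or Th17n DFMO WT replicate 2 or 3. The Rpl3 call was also lost without Th17n DFMO WT replicate 4 (-0.32, 0.055), and the Rpl24 call also with RLE size factors (-0.38, 0.059), with TMM computed without the members (-0.37, 0.060) and without any other WT library but iTreg DFMO WT replicate 2. With the animal as a block, edgeR called the difference between the WT responses for Rpl24, Rpl10a, Rpl13a and Rpl3 (adjusted p = 0.012, 0.0047, 0.0019 and 0.0072). DESeq2, with no block, called all 4 as well (adjusted p = 0.028, 0.0049, 0.034 and 0.0049). Of the small subunit, Rps6, the substrate of S6 kinase, fell by 0.25 and 0.21 (edgeR adjusted p = 0.0071 and 0.049) in WT and KO Th17n. It stood at 0.08 and -0.11 in WT and KO iTreg.

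Rpl5 rose by 0.29 in WT and 0.38 in KO Th17n (0.038 and 0.025). These calls were lost on TPM with limma in WT (0.17, 0.35), without Th17n DFMO WT replicate 3 or 4 or Th17n ctrl WT replicate 2 (0.26 to 0.29, 0.066 to 0.089) and, in KO, without Th17n ctrl KO replicate 1 (0.36, 0.077) or on TPM with no filter (0.41, 0.077). Rps4l, outside the naming rule for its low level, was called in WT Th17n at 1.60 ± 0.51 (0.010), from 0.43 to 1.06 CPM in ctrl and 1.76 to 2.96 with DFMO. The ribosomal partner of Rpl5, Rpl11, did not pass the test in Th17n cells (-0.07 and -0.02).

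In WT iTreg cells 53 of the 78 members rose under DFMO and 1, Rpl12, fell. In this comparison 23.1% of all genes were called higher and 24.3% lower (47.5% in all). The median member changed by 0.30 against -0.05 over all genes. With DFMO 65 members were higher in all 4 animals, which was not counted over all genes. Both subunits took part, with 24 of 32 of the 40S and 29 of 46 of the 60S called higher. Total-count scaling moved the median of all genes to -0.20 and left 29 members higher and 1 lower (16.5% and 33.0% of genes), with a member median of 0.15. Limma on log2(TPM + 1), where the gene median was also -0.20, gave 19 higher and 5 lower (12.4% and 30.7% of genes) and a member median of 0.07. Leaving out any 1 of the 8 libraries left 36 to 58 higher.

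The stalk of the 60S subunit, which recruits elongation factors, rose in WT iTreg cells in all 3 of its genes. Rplp2 stood at 1107, 1100, 1245 and 1382 CPM in ctrl and at 2077, 1642, 2220 and 2254 with DFMO, without overlap, a log2 rise of 0.76 ± 0.12 (adjusted p = 7.9e-06). Rplp0 rose by 0.43 ± 0.08 (8.2e-05) and Rplp1 by 0.43 ± 0.12 (0.0053). The same 3 genes stood between 0.00 and 0.31 in the 3 other DFMO comparisons, none called. Without a call, Rplp2 was also higher with DFMO in every KO animal. In KO Th17n it stood at 1072, 1095 and 1232 CPM in ctrl and 1249, 1306 and 1668 with DFMO, without overlap. In KO iTreg it stood at 1487, 1208 and 1534 against 1667, 1523 and 1974. In WT Th17n it was lower with DFMO in animal 1 (1113 against 1107) and higher in the others.

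Among the small-subunit members, Rps25, known for its part in internal initiation, stood at 1473, 1423, 1648 and 1642 CPM in ctrl WT iTreg and at 2367, 1887, 2559 and 2626 with DFMO, without overlap, a rise of 0.61 ± 0.11 (adjusted p = 2.6e-05). Rps19, mutated in Diamond-Blackfan anaemia, rose by 0.37 (0.0020), Rps26, at the mRNA exit channel, by 0.28 (0.014), Rps4x by 0.31 (0.0013) and Rpsa, also known as the laminin receptor, by 0.32 (0.049). In KO iTreg cells these 5 stood at -0.13 to 0.26 without a call.

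Among the large-subunit members in WT iTreg cells, Rpl37a stood at 810, 939, 851 and 1056 CPM in ctrl and 1418, 1225, 1413 and 1524 with DFMO, without overlap (0.61 ± 0.11, adjusted p = 2.0e-05). Rpl38, known for selective translation of Hox mRNAs, rose from 609, 634, 623 and 652 to 975, 723, 942 and 929 (0.50 ± 0.09, 4.2e-05). Rpl11 rose by 0.34 (0.015), Rpl10, which completes the 60S subunit, by 0.37 (0.026) and Rpl22, needed for alpha-beta T cell development, by 0.30 (0.049). Rps27a, made as a ubiquitin fusion, did not pass the test (0.21, 0.070), nor did Rpl3, Rpl5, Rpl10a, Rpl13a, Rpl24 or Rpl39 (-0.00 to 0.18).

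In KO iTreg cells 4 members rose and 3 fell, 8.97% called against 38.1% of all genes (19.0% higher and 19.1% lower), and the median member changed by 0.02. With the animal as a block 11 rose and 6 fell (20.1% and 20.7% of genes). In all 3 animals 28 members were higher and 23 lower, with no count over all genes. Rpl12, Rpl24 and Rpl10a were the members lower, as above. Among the 4 higher were Rps27l, Rpl5 (0.44 ± 0.14, adjusted p = 0.014) and Rps12 (0.42 ± 0.15, 0.028). The Rps12 call was lost when its pseudogene row was added (0.39, 0.063), and both it and Rpl5 were lost on TPM with limma (0.24 and 0.38, 0.23 and 0.072), with total-count scaling (0.32 and 0.34, 0.058 and 0.053) and without iTreg DFMO KO replicate 2 or 3 or iTreg ctrl KO replicate 1. Rps12 was also lost without iTreg ctrl KO replicate 2 and Rpl5 without iTreg ctrl KO replicate 3, and over these libraries Rps12 stood at 0.30 to 0.43 (0.050 to 0.17) and Rpl5 at 0.34 to 0.39 (0.063 to 0.10). The number higher was 1, 0, 1 or 2 without iTreg DFMO KO replicate 2 or 3 or iTreg ctrl KO replicate 1 or 3. Total-count scaling gave 1 higher and 13 lower (14.8% and 23.6% of genes), and limma on log2(TPM + 1) gave 2 and 14 (12.8% and 19.9%).

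**Figure D3:**
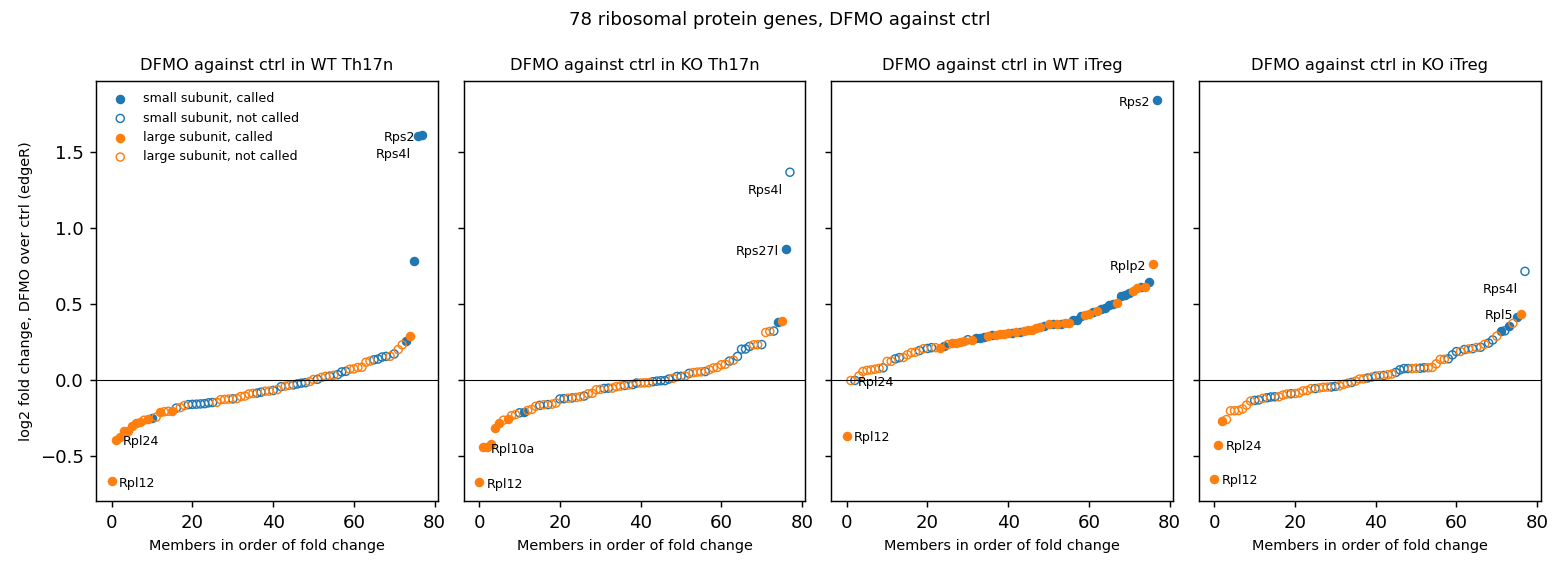
Log2 fold changes (edgeR) of the 78 members under DFMO in the 4 comparisons, each panel in order of its own values, coloured by subunit and filled where the adjusted p was under 0.05. The WT iTreg panel holds 53 members called higher with TMM scaling (29 with total-count scaling), while the other panels centre near 0.

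The responses of WT iTreg and Th17n cells were compared directly. The DFMO change was called smaller in WT Th17n than in WT iTreg for 20 members and larger for 0, where 5.34% of all genes were called lower and 3.39% higher (8.73% in all), and the median difference was -0.38 over members and -0.01 over genes. These DFMO changes share animals but no libraries. With the animal as a block 65 members were lower and 0 higher, where 7.52% of genes were lower and 4.81% higher. The count rested on scaling: total-count scaling gave 1 lower (2.57% of genes), limma on log2(TPM + 1) 0 (2.17%), and the other TMM reference library 6 (4.06%). It was 1 without iTreg DFMO WT replicate 3 or 4 or iTreg ctrl WT replicate 1 or 2, and 5 to 13 without Th17n DFMO WT replicate 1, 2 or 3, Th17n ctrl WT replicate 1, 3 or 4, iTreg DFMO WT replicate 1 or iTreg ctrl WT replicate 3 or 4. In KO cells, 0 members were called by edgeR in the matching test, 2 had an unadjusted p under 0.05 against 19.0% of all genes, and 5.9% of all genes were called (2.2% higher and 3.7% lower). DESeq2 called 1, as did edgeR with the animal as a block (1 higher, against 3.19% of genes higher and 4.74% lower).

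The 3 largest of these differences were in Rps21, Rps27 and Rpl27a. Rpl27a, whose annotated start lies in a pyrimidine run shown above, fell in WT Th17n from 683, 681, 738 and 761 CPM to 500, 597, 653 and 601, and rose in WT iTreg from 650, 641, 649 and 703 to 849, 715, 777 and 837, both without overlap. Its difference was -0.55 ± 0.11 (adjusted p = 0.0021), lost only on TPM with limma (-0.27, 0.075 to 0.12). Rps27 differed by -0.56 ± 0.15 (0.015) and Rps21 by -0.58 ± 0.17 (0.030). Both were lost on TPM (-0.29 and -0.31, 0.067 and 0.13), with total-count scaling (-0.35 and -0.38, 0.064 and 0.10) and without iTreg DFMO WT replicate 3 or 4 or iTreg ctrl WT replicate 1 or 2 (-0.48 to -0.44 for Rps27 and -0.49 to -0.48 for Rps21). Rps21 was also lost with the other TMM reference library (-0.51, 0.062), in a fit of these 4 groups alone (-0.57, 0.053) and without each of 7 other libraries, Th17n DFMO WT replicates 1 and 2, Th17n ctrl WT replicates 3 and 4, iTreg DFMO WT replicate 1 and iTreg ctrl WT replicates 3 and 4 (-0.58 to -0.45).

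Between genotypes, Rps2 was the only member called by edgeR over all 28 libraries with TMM scaling, the low-count filter and no block. Some other fits with no block called more members in iTreg ctrl, as given in the closing section. In Th17n ctrl, KO against WT, 1 of 78 members was higher, Rps2, and 0 lower, where 3.04% of all genes were called (2.29% higher and 0.746% lower). In iTreg ctrl it was again Rps2 alone, where 5.3% were called (3.17% higher and 2.13% lower). There libraries of the same number in KO and WT deviated together (r of 0.104, 0.189 and 0.123 over genes), and with the number as a block 8 members were higher and 0 lower, against 4.21% of genes higher and 3.36% lower. In Th17n DFMO and iTreg DFMO edgeR called 0 members against 1.02% of genes (0.646% higher and 0.373% lower) and 4.14% (1.91% higher and 2.23% lower), with 0 and 12 of 78 members at an unadjusted p under 0.05, against 9.37% and 16.3% of all genes. DESeq2 called 0 in each as well. In iTreg DFMO 77 of 78 members were lower in KO, with a median of -0.18 against 0.00 over all genes. In iTreg ctrl 67 of 78 were higher, with a median of 0.11 against -0.01 over all genes. Signs, here and below, were not counted over all genes. Without iTreg ctrl KO replicate 2 or iTreg ctrl WT replicate 4 the count in iTreg ctrl was 2 or 3, and without iTreg DFMO WT replicate 2 the count lower in iTreg DFMO was 4.

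Rps2, which lines the mRNA channel of the 40S subunit, was low in untreated WT cells only. In Th17n ctrl WT its libraries stood at 1488, 1563, 2218 and 2417 CPM and in iTreg ctrl WT at 1621, 2270, 1983 and 961. With DFMO, WT libraries stood at 5416, 5831, 6223 and 5977 in Th17n and 6516, 5618, 7835 and 4525 in iTreg. KO libraries stood at 4865, 4754 and 5329 in Th17n ctrl, 5032, 5516 and 5740 in Th17n DFMO, 4904, 5178 and 5629 in iTreg ctrl and 5668, 5884 and 6574 in iTreg DFMO. The 8 WT ctrl libraries (961 to 2417 CPM) all lay below the 20 others (4525 to 7835), also on the TPM scale (1047 to 2649 against 4089 to 7249). Of the 77 other members 0 showed that separation, and the share of all genes that do was not counted.

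The log2 change of Rps2 with DFMO was 1.61 ± 0.18 (adjusted p = 1.1e-08) in WT Th17n and 1.84 ± 0.18 (1.7e-09) in WT iTreg. In KO it was 0.12 ± 0.20 (0.65) and 0.21 ± 0.20 (0.45). KO exceeded WT by 1.37 ± 0.19 (3.9e-05) in Th17n ctrl and 1.62 ± 0.19 (3.1e-06) in iTreg ctrl, and with DFMO the genotypes stood at -0.11 and -0.02 from each other. The DFMO change was smaller in KO than in WT by -1.49 ± 0.27 (0.0055) in Th17n and -1.63 ± 0.27 (0.0029) in iTreg. In both tests Rps2 was the 1 member called, and it was lower. Of all genes 0.328% were called in Th17n (0.0364% higher and 0.291% lower) and 0.246% in iTreg (0.0273% higher and 0.218% lower). The Th17n difference missed the threshold on log2(TPM + 0.1) with limma (-1.50, 0.055) and without a filter on TPM (0.087), and the iTreg difference in the latter (-1.52, 0.057) and in a fit of these 4 groups alone (-1.65, 0.060). The Rps2 calls within WT and in ctrl cultures held in every alternative run.

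In the iTreg interaction the other members leaned the same way as Rps2 but below the threshold. The median difference was -0.30 over members and 0.01 over genes, 75 of 78 were negative and 38 had an unadjusted p under 0.05, against 9.83% of all genes. With the animal as a block 2 were lower and 0 higher, against 0.455% and 0.0637% of genes. In Th17n the median difference was 0.03, and 1 member, Rps2, had an unadjusted p under 0.05, against 6.85% of all genes.

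**Figure D4:**
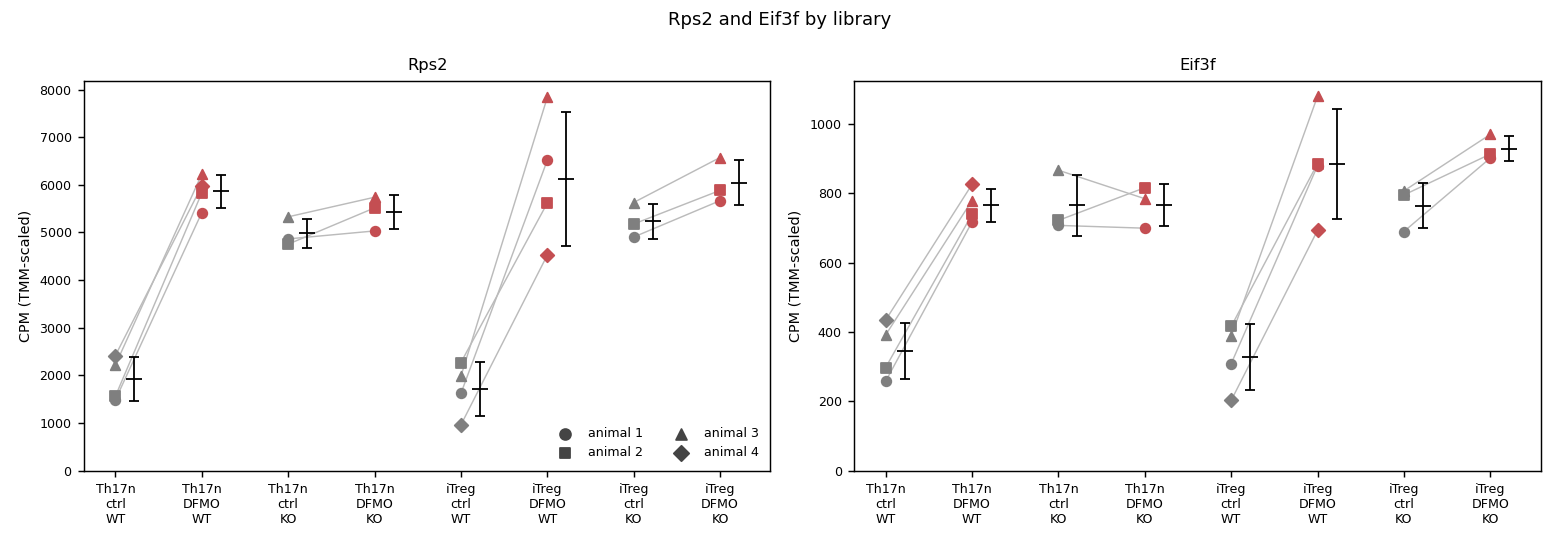
Rps2 (40S subunit) and Eif3f (a subunit of the initiation factor eIF3) in every library, in TMM-scaled CPM, for the 8 groups, with symbols, lines and bars as in the plot of shares. In both genes the 8 WT ctrl libraries lie below the 20 others.

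The gene whose pattern over the 28 libraries was most like that of Rps2 was Eif3f, at a Pearson r of 0.990 of log2 CPM, and 0.968 for deviations from group means, where the libraries share depth and scaling. Eif3f stood at 258, 297, 391 and 434 CPM in Th17n ctrl WT and 308, 416, 387 and 202 in iTreg ctrl WT, against 689 to 1079 in the 20 other libraries. In both genes the lowest library was iTreg ctrl WT replicate 4. Next came Ier2 (0.967), Sys1 (0.964), Lsm4 (0.961) and Desi1 (0.960), and 50 genes exceeded 0.9. No other member was among them. The nearest member was Rpl37a at 0.535, and the median over the 77 was 0.191. The row Rps2-ps6 held 1.69 CPM on average. Across all genes tested, the KO against WT change in iTreg ctrl had a Spearman correlation of 0.249 with GC content and in Th17n ctrl of 0.176, where genes are not independent, and the part of GC content in the Rps2 values was not tested.

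In untreated WT cells 0 members were higher and 4 lower in Th17n than in iTreg, against 19.9% and 20.0% of genes (40.0% in all), and 7 were higher and 21 lower in all 4 animals. In KO, 0 were higher and 13 lower, against 17.8% and 17.6% (35.3%). The median member in KO stood at -0.22 against -0.02 over all genes, with 75 of 78 negative and 61 lower in all 3 animals. Directions in every animal were not counted over all genes. With the animal as a block 2 were higher and 9 lower in WT (21.3% and 21.5% of genes) and 0 higher and 42 lower in KO (19.3% and 19.5%). In KO total-count scaling gave 54 lower (23.7% of genes), limma on log2(TPM + 1) 33 (16.5%) and the other TMM reference library 27 (20.1%). The count in KO was 5 or 3 without Th17n ctrl KO replicate 1 or iTreg ctrl KO replicate 1, and that in WT 2 without iTreg ctrl WT replicate 3.

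Rps27l was the member with the largest such difference, lower in Th17n by -0.65 ± 0.10 (adjusted p = 6.0e-06) in WT and -0.92 ± 0.12 (5.7e-07) in KO, with no overlap in the values given above. Rps27a was lower by -0.29 (0.013) and -0.44 (0.0019). The WT call of Rps27a was lost without iTreg ctrl WT replicate 3 (-0.23, 0.078). Rpl5 was lower in WT by -0.34 (0.021), lost without Th17n ctrl WT replicate 2 or iTreg ctrl WT replicate 3 (-0.31 and -0.24, 0.057 and 0.15) and on TPM with limma (-0.26, 0.16). Rpl31 and Rpl28 were lower in KO by -0.45 (0.026) and -0.38 (0.019). These were lost without Th17n ctrl KO replicate 1 (-0.30 and -0.28) or iTreg ctrl KO replicate 1 (-0.45 and -0.37), and Rpl31 also without iTreg ctrl KO replicate 3 (-0.43).

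**Figure D5:**
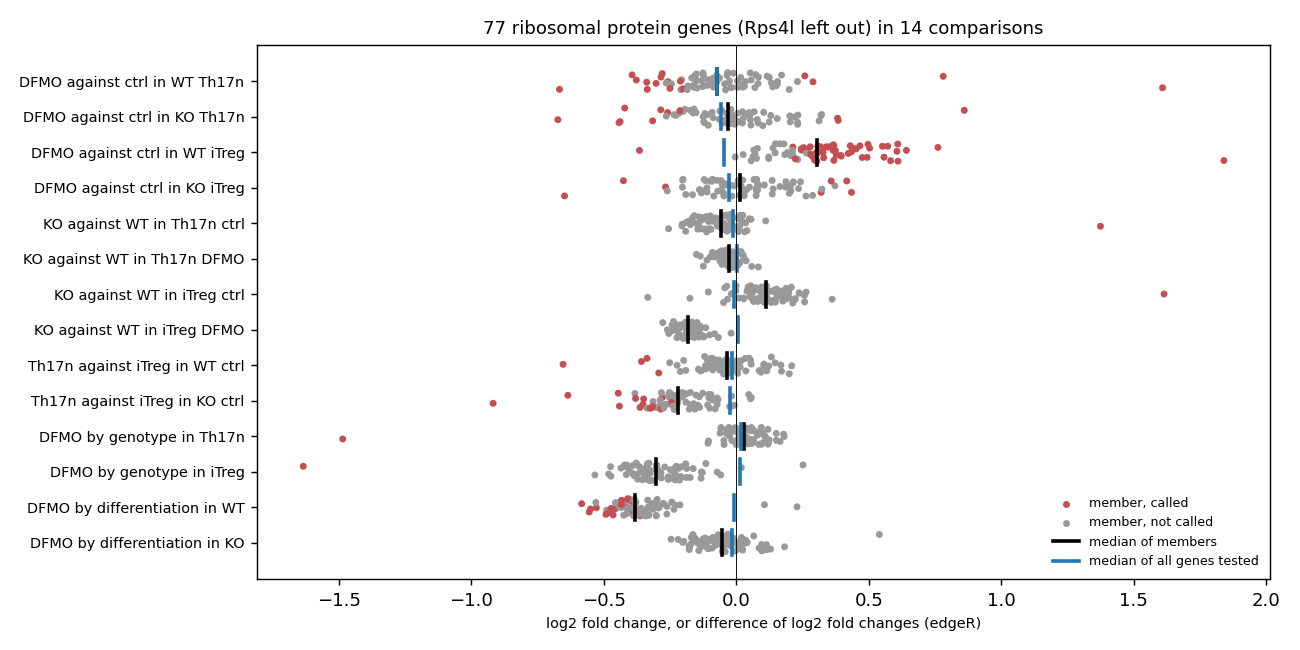
Log2 fold changes, or differences of them, of 77 members (Rps4l left out for its low level) in the 14 comparisons, red where called, with the members' median in black and that of the 10985 genes tested in blue. The members' median departs most from that of the genes in WT iTreg under DFMO (0.30) and in the differences that involve it, and Rps2 stands apart in 6 comparisons.

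The genes that build and serve the ribosome stand beside its protein genes as counts under DFMO. In the order WT Th17n, KO Th17n, WT iTreg and KO iTreg, 33, 34, 33 and 36 of 37 tested ribosome assembly genes rose and 1, 1, 0 and 0 fell, with medians of 0.94, 1.13, 1.01 and 0.92. Nolc1, a nucleolar chaperone of box-containing small RNA-protein particles, rose by 1.61, 1.82, 1.30 and 1.47, and Nop56, a core protein of those particles, by 1.47, 1.55, 1.14 and 1.35. Of 17 genes of RNA polymerase I and its factors 11, 11, 13 and 10 rose and 1, 2, 1 and 1 fell, and Ubtf, which opens ribosomal DNA, rose by 1.19, 1.25, 1.09 and 1.00. Of all genes 23.4%, 21.1%, 23.1% and 19.0% were higher and 28.4%, 24.6%, 24.3% and 19.1% lower in the same order, the background of every list here.

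Of 30 translation factors outside the TOP class 21, 18, 20 and 20 rose and 2, 2, 3 and 2 fell, among them Eif4g1, the initiation scaffold, which rose by 1.12, 0.84, 1.06 and 0.93. Of 13 polyamine and eIF5A genes 8, 6, 7 and 5 rose and 5, 4, 5 and 5 fell, with Srm, spermidine synthase, up by 3.22, 2.44, 3.06 and 2.49. Of 18 regulators of TOP mRNAs and ribosome synthesis 7, 5, 8 and 5 rose and 4, 3, 2 and 2 fell. Mxd4, an antagonist of Myc, fell by 2.03, 1.68, 1.83 and 1.11, and Cnbp, which binds TOP mRNAs, rose by 0.51, 0.54, 0.58 and 0.71.

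Of 19 non-ribosomal genes of the TOP class 4, 4, 9 and 6 rose and 8, 4, 0 and 1 fell, with medians of -0.10, -0.04, 0.21 and 0.11. Eef1a1, the main elongation factor gene, averaged 18029 ± 1007 CPM (SD, n = 4) in Th17n ctrl WT and 14824 ± 884 with DFMO, and 16325 ± 1513 and 19105 ± 2221 in iTreg WT. Its DFMO change was smaller in Th17n than in iTreg by -0.51 (adjusted p = 0.0040) in WT and -0.47 (0.029) in KO. Of 8 ribosomal protein genes whose symbols fall outside the rule, 1, 1, 4 and 2 rose and 2, 2, 2 and 1 fell. The paralog Rpl7l1 rose by 1.03, 1.14, 0.99 and 0.98, while the paralog Rpl22l1 fell by 1.29, 1.02, 1.18 and 1.14. Rpl22, its common form, stood at -0.13, -0.04, 0.30 and 0.08.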

How the data were processed

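The authors deposited estimated counts and TPM per gene, made with kallisto on GRCm38 per the submitters' processing notes, with no version given in the sources used here. A fraction of 67.2% of the estimated counts lay within 0.001 of a whole number. All were rounded and fitted with edgeR 4.0.16 (R 4.3.3) in 1 quasi-likelihood model of 8 group means over 28 libraries, with TMM scaling. The low-count filter kept 10985 genes, all 78 members among them. P-values were Benjamini-Hochberg adjusted over these genes within each of 14 comparisons, and a gene was called (higher, lower, rose or fell) under 0.05. Errors of log2 values are standard errors. CPM are TMM-scaled. Levels between genes use the deposited TPM. No source states strand-aware counting, and reads of a gene and of one overlapping it may mix.

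Members and lists were chosen with earlier results of these data known. Named were the 5 largest called changes each way (3 for interactions, 4 of smallest p per other list) with at least 10 CPM and, under DFMO, 1 direction in every animal, plus genes of known roles. The labels tie cultures to animals. Same-animal deviations correlated at 0.038 to 0.313 between DFMO and ctrl and -0.022 to 0.112 between Th17n and iTreg ctrl. KO and WT libraries of 1 number correlated at 0.104 to 0.189 in iTreg ctrl and at 0.023 to 0.174 in the other cultures. Among the latter, iTreg DFMO stood at 0.0996, 0.174 and 0.162, much like iTreg ctrl. A block on the number was run in all KO against WT comparisons, and it moved the count of members in iTreg ctrl only. Alternatives used DESeq2 1.42.0, limma 3.58.1 on log2(TPM + 1 or 0.1), other scalings, filters and sample sets. The edgeR step was tested on simulated data. Some members are not reported here by name.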

Additional observations from a re-analysis of the deposited data

Results flagged for a closer look

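In groups of 4, a lone library stood apart by Dixon's criterion in 9 of 136 sets of values (6.62%, where chance gives about 1 in 20). Th17n ctrl WT replicate 1 was lowest for Rplp0 (6379 CPM). Th17n DFMO WT replicate 1 was lowest for Rpl37a (802 CPM), Rplp2 (1107 CPM) and Rps27l (189.5 CPM). In iTreg ctrl WT, replicate 4 was highest for Rpl27a (703 CPM) and Rpl39 (1510.0 CPM). In iTreg DFMO WT, replicate 4 was highest for Rpl22 (859 CPM) and replicate 2 lowest for Rps21 (631 CPM) and Rps26 (1323 CPM).

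The DFMO change differed between genotypes for Rps2, by -1.49 (log2) in Th17n and -1.63 in iTreg, and it was the 1 member called in each. Between Th17n and iTreg cells of WT animals it differed for 20 members, with Rps21 (-0.58), Rps27 (-0.56) and Rpl27a (-0.55) the largest. The members' share of all counts moved in opposite directions with DFMO in iTreg cells, by 1.93 percentage points on average in WT (4 of 4 animals up) and -0.852 in KO (3 of 3 down); this difference of shares was not tested.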

How the results depend on the processing

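Of the 46 calls of members named by the size of their change, 25 held in every alternative run, 21 were lost in at least 1 and 0 changed sign. Other calls of members given above lie outside this count. Those of Rpsa and Rpl22 in WT iTreg and of Rps6 in KO Th17n were close to the threshold. Below, "DFMO by genotype" is the DFMO change in KO less that in WT, and "DFMO by differentiation" that in Th17n less that in iTreg. Counts of members moved over 1.5 times as follows, and apart from the pseudogene and reference library settings every alternative was planned.

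With the animal as replicate block, DFMO gave 8 higher and 20 lower in WT Th17n, 11 higher in KO Th17n and 11 higher and 6 lower in KO iTreg. Th17n against iTreg gave 2 higher and 9 lower in WT and 42 lower in KO. DFMO by genotype in iTreg gave 2 lower, and DFMO by differentiation 65 lower in WT and 1 higher in KO. KO and WT share numbers but not animals; a block on the number gave 8 higher in iTreg ctrl. The block moved no other count over 1.5 times.

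With total-count scaling, DFMO gave 13 higher in KO Th17n, 29 higher in WT iTreg and 1 higher and 13 lower in KO iTreg. KO against WT gave 3 higher in iTreg ctrl, Th17n against iTreg 10 lower in WT and 54 in KO, and DFMO by differentiation 1 higher and 1 lower in WT and 1 higher in KO. With the other TMM reference library, 9 were higher in KO Th17n, 27 lower in Th17n against iTreg in KO, and in DFMO by differentiation 6 lower in WT and 1 higher in KO. RLE and TMM without the members each gave 1 higher in DFMO by differentiation in KO, and the latter 1 higher in Th17n against iTreg in WT.

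With no filter, DFMO gave 6 lower in WT Th17n, 12 higher and 4 lower in KO Th17n and 8 higher in KO iTreg; KO against WT gave 2 higher in iTreg ctrl, and DFMO by differentiation 11 lower in WT and 1 higher in KO. With only the groups compared, counts were 7 lower in WT Th17n, 12 higher in KO Th17n, 30 lower in Th17n against iTreg in KO, 0 lower in DFMO by genotype in iTreg, and in DFMO by differentiation 6 lower in WT and 1 higher in KO. DESeq2 gave 2 higher for KO in iTreg ctrl, 1 higher in Th17n against iTreg in WT, 3 lower in DFMO by genotype in iTreg, and in DFMO by differentiation 32 lower in WT and 1 higher in KO.

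Limma on log2(TPM + 1), on log2(TPM + 0.1) and on log2(TPM + 1) with no filter gave, in that order, 11, 10 and 9 higher in KO Th17n, 19, 19 and 17 higher and 5, 5 and 5 lower in WT iTreg, and 2, 2 and 2 higher and 14, 15 and 9 lower in KO iTreg. They gave 1 higher each in Th17n against iTreg in WT and 33, 33 and 24 lower in KO, and in DFMO by differentiation 1 higher and 0 lower in WT and 1 higher in KO. The first 2 gave 9 and 10 higher in WT Th17n, 7 and 7 lower in Th17n against iTreg in WT and 2 and 2 higher for KO in iTreg ctrl. DFMO by genotype in Th17n had 0 lower in the last 2, and in iTreg 0 in the last. The cause was not tested in any of these.

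Leaving out 1 library gave 3 to 8 higher and 5 to 12 lower under DFMO in WT Th17n, 2 to 9 and 4 to 8 in KO Th17n, 36 to 58 and 0 to 1 in WT iTreg, and 0 to 4 and 2 to 3 in KO iTreg. For KO against WT it gave 1 to 3 higher in iTreg ctrl and 0 to 4 lower in iTreg DFMO. For Th17n against iTreg it gave 0 to 1 higher and 2 to 6 lower in WT and 3 to 11 lower in KO. DFMO by genotype gave 1 to 2 lower in iTreg, and DFMO by differentiation 1 to 27 lower in WT and 0 to 1 higher in KO.

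Without the 5 members of the highest mean CPM, the set's share of counts was 11.5%, 11.6%, 11.2% and 11.3% in Th17n ctrl WT, DFMO WT, ctrl KO and DFMO KO, and 12.5%, 14.0%, 13.8% and 13.0% in iTreg. Depth limits Rps4l, at a few counts per library. Nothing says that an animal's 4 cultures were replicated, so p-values cover the spread between animals and cultures together.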
